A study of Mus musculus with 24 samples.

Results

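Interferon-response and antigen-presentation genes were followed in Ocy454 cells, a mouse osteocytic line, as a named list of 36 genes among the 49172 genes of the deposited tables. The list holds genes induced by interferon, the signalling factors that induce them, and genes that cut, transport and display peptides on MHC class I. All 36 members passed the filter on low counts, which left 16424 genes for testing. The groups were both agents (lysophosphatidic acid, LPA, with 1,25-dihydroxyvitamin D, 1,25D), 1,25D alone, LPA alone and vehicle, each treated for 8 h or 2 h, with 3 libraries in each of the 8 groups and n = 3 for every mean and SD. The labels give every group the same cell line and name no other genetic change, and no source used here states a dose. The study set out to learn how both agents act on the synthesis of the phosphate-regulating hormone FGF23 and through which signalling routes.

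The letters for the single treatments are exchanged between the sample titles and the names of the deposited tables, and the vitamin D response genes go against the titles. Cyp24a1, the vitamin D 24-hydroxylase that 1,25D strongly induces, summed over 3 libraries at 8 h to 87 counts with both agents, 1 count labelled 1,25D, 102 counts labelled LPA and 1 count with vehicle. Vdr, the vitamin D receptor, averaged 223 CPM (counts scaled to library size, used to compare libraries within a gene) with both agents, 72.3 CPM in libraries labelled 1,25D, 254 CPM in libraries labelled LPA and 125 CPM with vehicle. At 2 h the Cyp24a1 sums were 6 counts with both agents, 1 count labelled 1,25D, 10 counts labelled LPA and 1 count with vehicle. Cyp24a1 thus goes with the table codes, under which the libraries titled LPA received 1,25D and those titled 1,25D received LPA. Groups keep the titles here, and the single treatments are called "labelled 1,25D" (table code L) and "labelled LPA" (table code D) throughout. Any direction given for either one rests on a label that Cyp24a1 and Vdr go against. Which label is right does not touch the interaction, nor the comparison of both agents with vehicle.

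Interferons bind paired surface receptors and activate JAK kinases. Type I and type III interferons lead to a complex that holds STAT2 and IRF9 and binds the interferon-stimulated response element (ISRE), while interferon gamma acts through the gamma-activated site (GAS). Target genes encode antiviral effectors such as the IFIT and OAS proteins, RNA sensors, and the immunoproteasome, TAP transporter and MHC class I chains that present antigen. Ocy454 cells come from mice carrying a temperature-sensitive SV40 large T antigen under the interferon-inducible H-2Kb promoter, which limits them as a model of this pathway.

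Promoter sequence is shown for Ifit3, Ifit3b, Isg15, Rsad2 and Stat2, all chosen from members with the ISRE core. Other members that changed, among them Psmb9, Irf7 and Ifi44, had a window without it. Windows run from 250 bases before to 50 bases after the start of the gene, from RefSeq on GRCm38.p6, and are printed on the gene's strand. The bases just after that start were sought in the transcript of highest TPM. They were found for Isg15, Rsad2, Psmb9 and Ifi44, and not for Ifit3, Ifit3b, Stat2 and Irf7. Whether those genes start elsewhere in these cells was not tested. Capitals mark the ISRE core, searched as GAAA, any 2 bases and GAAA on both strands. A window was found for 29 of the 36 members.
Ifit3, chr19:34583279-34583578, plus strand: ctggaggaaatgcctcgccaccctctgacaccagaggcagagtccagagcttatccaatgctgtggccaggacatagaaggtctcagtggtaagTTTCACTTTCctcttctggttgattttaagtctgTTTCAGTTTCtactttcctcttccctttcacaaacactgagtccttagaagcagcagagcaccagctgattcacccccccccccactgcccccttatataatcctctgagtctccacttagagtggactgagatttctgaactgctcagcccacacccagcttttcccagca
Ifit3b, chr19:34607707-34608006, plus strand: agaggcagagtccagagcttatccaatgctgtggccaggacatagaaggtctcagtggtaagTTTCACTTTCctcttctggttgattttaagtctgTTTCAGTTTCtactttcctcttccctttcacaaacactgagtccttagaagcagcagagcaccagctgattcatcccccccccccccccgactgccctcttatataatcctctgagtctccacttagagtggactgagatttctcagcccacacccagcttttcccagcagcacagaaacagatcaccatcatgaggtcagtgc
Isg15, chr4:156200769-156201068, minus strand: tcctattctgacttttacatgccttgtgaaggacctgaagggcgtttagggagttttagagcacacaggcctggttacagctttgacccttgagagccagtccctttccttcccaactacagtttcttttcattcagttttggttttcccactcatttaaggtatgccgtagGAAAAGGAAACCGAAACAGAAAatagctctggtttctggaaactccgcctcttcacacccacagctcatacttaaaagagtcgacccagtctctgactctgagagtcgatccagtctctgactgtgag
Rsad2, chr12:26456403-26456702, minus strand: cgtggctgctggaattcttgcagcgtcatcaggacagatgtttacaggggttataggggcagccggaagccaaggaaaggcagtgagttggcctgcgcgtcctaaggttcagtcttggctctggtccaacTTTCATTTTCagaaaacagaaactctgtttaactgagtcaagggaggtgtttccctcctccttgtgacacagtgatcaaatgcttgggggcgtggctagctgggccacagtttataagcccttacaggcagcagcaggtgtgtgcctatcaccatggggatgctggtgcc
Stat2, chr10:128270248-128270547, plus strand: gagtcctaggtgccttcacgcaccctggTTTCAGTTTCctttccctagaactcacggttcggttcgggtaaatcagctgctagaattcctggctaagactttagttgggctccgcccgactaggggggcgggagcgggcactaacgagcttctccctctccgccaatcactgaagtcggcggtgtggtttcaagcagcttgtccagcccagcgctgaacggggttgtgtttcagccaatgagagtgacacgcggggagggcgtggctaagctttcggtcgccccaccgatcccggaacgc
The ISRE core was present in a window of 13 of the 29 members (44.8%), against 3.99% of all 27025 genes with a window. The GAS core, searched as TTCNNNGAA, was present in 7 of 29 members (24.1%), against 9.55% of all genes. Isg15 carried 3 overlapping copies of the ISRE core. Ifit3 and Ifit3b each carried 2, and their windows shared 1 unbroken identical run of 169 bases. Compared at 1 fixed shift without gaps, the windows were identical at 201 of 268 bases. Bases after an insertion or deletion fall out of step in such a count, so it can understate how alike the windows are. Of the 13 members with the ISRE core, 7 were lower in at least 1 treatment at 8 h. Of the 16 with a window and no ISRE core, 10 were. The share of all tested genes lower in at least 1 treatment at 8 h was not computed, so nothing is read from these counts. Whether the core goes with a change was not tested. A match is a description of these letters, not evidence of binding.

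Libraries held 32.96 to 33.84 M estimated counts, and the members had at least 39 counts in each library. The mitochondrial share of counts was highest, at 16.92%, in vehicle replicate 2 at 8 h, and 9.01% in the lowest library. That vehicle library also lay at one end of the main axis of variation within groups, which held 15.6% of that variation, with replicate 2 of both agents at 8 h next to it. Several members were higher in that vehicle library than in its replicates. The counts of members called against vehicle at 8 h are therefore also given without it, and calls against vehicle lost without it are named. Other effect sizes at 8 h include it. The labels do not say whether replicates were separate cultures, and p-values reflect only the spread among these libraries, which may be technical. Of 12 osteoblast and osteocyte markers, 7 had a median of at least 1 TPM, among them Col1a1, Gja1 and Pdpn. The mature osteocyte markers were low: Dmp1 had a median of 1.03 TPM, Sost had 30 counts and Mepe 1 count over all 24 libraries. Of 9 markers of macrophages and other blood cells, Cd68, Lyz2 and Cd14 reached a median of at least 1 TPM, while Adgre1 had 10 counts and Tyrobp 4 counts over all libraries. Their summed level was 34.8 to 35.7 TPM with both agents at 8 h, 28.1 to 33.3 TPM labelled 1,25D, 27.5 to 30.1 TPM labelled LPA and 25.3 to 29.3 TPM with vehicle. At 2 h it was 36.6 to 39.1 TPM with both agents, 36.3 to 38.97 TPM labelled 1,25D, 30.2 to 35.1 TPM labelled LPA and 30.3 to 34.5 TPM with vehicle. The summed osteoblast and osteocyte markers at 8 h spanned 600.4 to 1172 TPM with both agents, 1091 to 1104 TPM labelled 1,25D, 1082 to 1529 TPM labelled LPA and 440.3 to 1060 TPM with vehicle. The part of either list in the results was not tested. Where expression falls in a culture, fewer responding cells and less RNA per cell cannot be told apart.

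All 36 members were expressed, taking a group mean of at least 1 TPM in at least 1 group as the limit. TPM is scaled for transcript length and depth, so levels of different genes can be compared on it. A level of 10 TPM was reached by 24 members, and 100 TPM by 6, which were B2m, H2-K1, H2-D1, Bst2, Isg15 and Irf1. B2m, the light chain of MHC class I, was the highest, with group means of 2241 to 2523 TPM. H2-K1, a class I heavy chain, followed at group means of 484 to 581 TPM, although 69.9% of its TPM rested on 1 short transcript. The other class I heavy chain, H2-D1, averaged 219 to 307 TPM. At the low end stood Ifit3b, Rsad2 and Nlrc5, whose library values all stayed under 4 TPM. With both agents at 8 h, Ifit3b (0.841 TPM) and Nlrc5 (0.935 TPM) had means under 1 TPM, and the other 34 members did not.

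**Figure D1:**
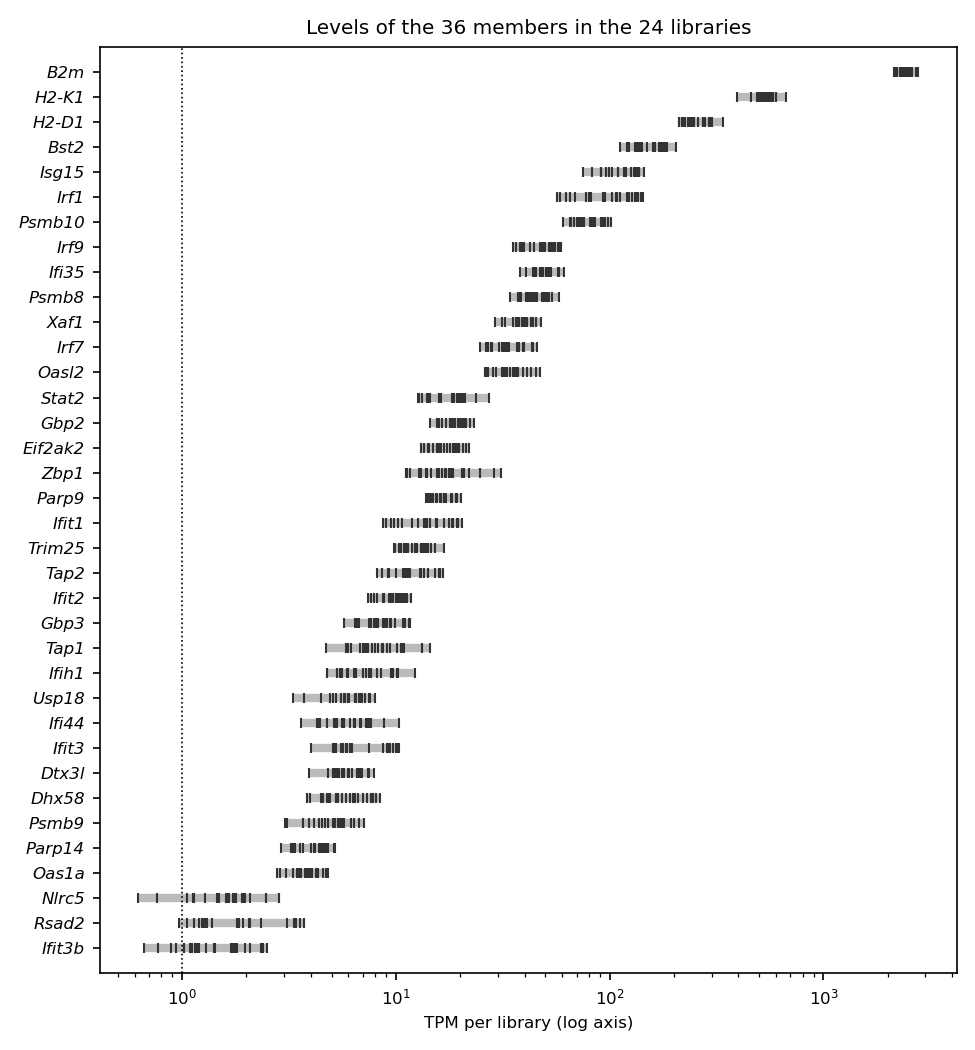
TPM of each member in the 24 libraries on a log axis, with each tick 1 library and the grey bar the full range. B2m lies above 2000 TPM, and Ifit3b, Rsad2 and Nlrc5 lie around 1 TPM, marked by the dotted line.

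Against vehicle at 8 h, members that changed were nearly all lower. With both agents, 13 of 36 members were lower and 1 was higher, so 38.9% of members passed an adjusted p of 0.05 in edgeR's quasi-likelihood test, where 16.8% of all tested genes did. Libraries labelled 1,25D had 12 members lower and none higher (16.2% of all tested genes called), and libraries labelled LPA had 10 lower and none higher (12.0% of all tested genes called). In the same 3 comparisons, 7.25%, 8.32% and 5.38% of all genes were called lower. The members were chosen with earlier results of these data known, so these shares describe the list and do not test it. The median log2 difference over the members was -0.19, -0.22 and -0.24, against 0.03, 0.00 and 0.00 for all tested genes. With the compared groups fitted alone, which uses fewer libraries for the spread, 5, 8 and 4 members were called. Without vehicle replicate 2, 14, 8 and 7 members were called. The count in libraries labelled 1,25D fell to 7 without their replicate 2, and that in libraries labelled LPA to 6 without their replicate 3.

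**Figure D2:**
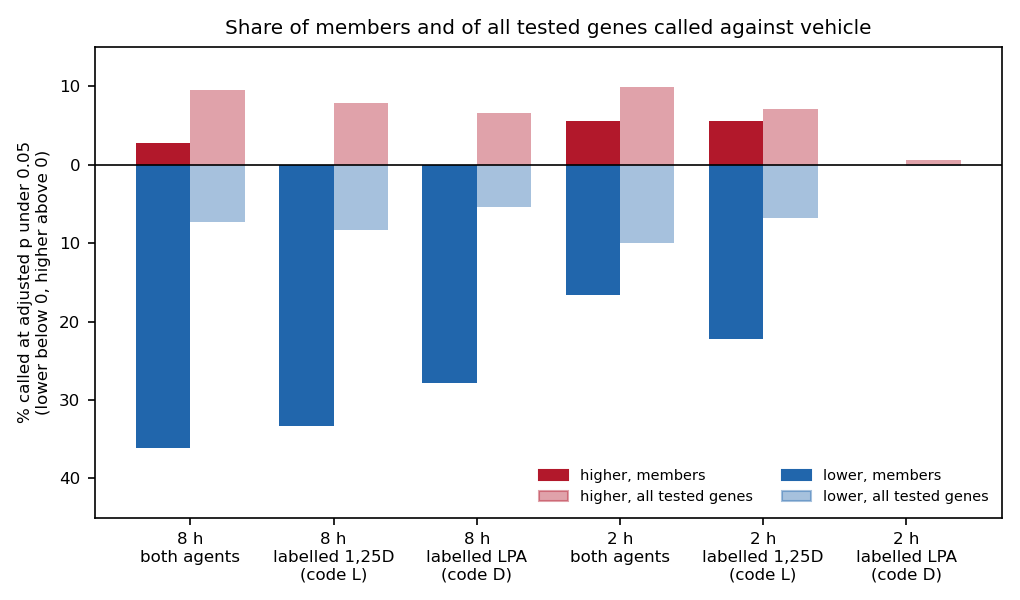
Percentage of the 36 members (solid) and of all tested genes (pale) called at an adjusted p under 0.05 against vehicle, higher above 0 and lower below it. The solid lower bars at 8 h reach 36.1%, 33.3% and 27.8% of members, against 7.25%, 8.32% and 5.38% of all genes, and no member was called in libraries labelled LPA at 2 h.

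The 3 members lower in every treatment at 8 h were Ifit3, Ifit3b and Ifi44. The share of all tested genes lower in every treatment was not computed. Ifit3, which encodes an RNA-binding antiviral protein, had 7.48, 6.58 and 7.20 CPM with both agents, 8.34, 7.36 and 7.05 CPM in libraries labelled 1,25D, and 8.59, 7.30 and 8.00 CPM in libraries labelled LPA, against 12.9, 16.4 and 13.0 CPM with vehicle. No treated library reached the lowest vehicle library. Its log2 changes were -0.99 ± 0.12, -0.90 ± 0.12 and -0.83 ± 0.12 (SE; adjusted p = 3.5e-06, 3.0e-05 and 5.2e-05). Its near copy Ifit3b had 1.83, 1.26 and 1.26 CPM with both agents, 1.55, 1.67 and 1.86 CPM in libraries labelled 1,25D, and 1.88, 2.04 and 1.75 CPM in libraries labelled LPA, against 3.93, 4.44 and 3.72 CPM with vehicle. Ifit3b thus fell by 63.9% with both agents, the largest fall of any member in the 6 comparisons with vehicle (log2 change -1.47 ± 0.17, adjusted p = 1.8e-06), and again the groups did not overlap. Because 61.8% of the 31-base words of the main Ifit3 transcript also occur in Ifit3b, and 55.5% of those of Ifit3b occur in other genes, how reads were split between them is uncertain.

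Ifi44, an interferon-induced gene of uncertain function, had 8.70, 7.99 and 6.60 CPM with both agents, 8.14, 7.85 and 7.72 CPM in libraries labelled 1,25D, and 9.26, 9.43 and 11.1 CPM in libraries labelled LPA, against 12.5, 19.98 and 12.2 CPM with vehicle. The groups did not overlap, but vehicle replicate 2 stood well above its replicates. Its log2 change was -0.94 ± 0.17 with both agents, -0.91 ± 0.16 labelled 1,25D and -0.58 ± 0.16 labelled LPA, and without vehicle replicate 2 it was -0.67, -0.64 and -0.33, of which the last did not pass (adjusted p = 0.23). Its call labelled LPA was also lost without replicate 2 labelled LPA (adjusted p = 0.084). Ifit1, another IFIT protein, had 23.6, 24.5 and 19.6 CPM with both agents and 21.3, 20.8 and 19.4 CPM in libraries labelled LPA, against 30.8, 43.7 and 27.9 CPM with vehicle. These groups did not overlap, and its log2 changes were -0.60 ± 0.13 and -0.73 ± 0.13 (adjusted p = 0.0025 and 0.00055). Without vehicle replicate 2, its log2 change with both agents was -0.38 (adjusted p = 0.02). With the compared groups fitted alone, Ifit1 and Ifi44 did not pass with both agents (adjusted p = 0.11 and 0.052) or labelled LPA (adjusted p = 0.077 and 0.2). In libraries labelled 1,25D its difference of -0.22 ± 0.13 did not pass.

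Transcriptional regulators of the pathway were among the members that fell at 8 h. Irf7, the factor that amplifies type I interferon production, had 32.4, 30.97 and 29.1 CPM with both agents and 32.0, 25.9 and 29.1 CPM in libraries labelled 1,25D, against 39.3, 47.8 and 38.5 CPM with vehicle. Every one of these treated libraries was below every vehicle library, at log2 changes of -0.44 ± 0.10 and -0.53 ± 0.10 (adjusted p = 0.0038 and 0.0012), of which the first did not pass with the compared groups fitted alone (adjusted p = 0.063). Irf1, which drives MHC class I and immunoproteasome genes, had 78.5, 66.9 and 70.3 CPM in libraries labelled LPA, against 102, 118 and 104 CPM with vehicle. Its fall of 33.5% (log2 change -0.59 ± 0.08, adjusted p = 2.1e-05) was found in libraries labelled LPA, and the values with both agents, 90.6, 110 and 85.5 CPM, overlapped vehicle (adjusted p = 0.14). Nlrc5, the transactivator of MHC class I, had 4.24, 3.51 and 3.93 CPM with both agents, against 6.24, 5.62 and 6.96 CPM with vehicle, with no overlap and a log2 change of -0.69 ± 0.18 (adjusted p = 0.011). Its difference labelled LPA, -0.46 ± 0.18, did not pass (adjusted p = 0.1), and the difference of both agents from libraries labelled LPA was -0.23 ± 0.19 (adjusted p = 0.41). Stat2 passed with both agents at a log2 change of -0.22 ± 0.07 (adjusted p = 0.041) and was lost without replicate 1 or 2 of vehicle or any replicate of both agents (adjusted p = 0.053 to 0.22), with no filter on low counts, with length-scaled TPM and with the compared groups fitted alone (adjusted p = 0.13 to 0.24). Its differences labelled 1,25D and labelled LPA were -0.17 ± 0.07 each.

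Among the immunoproteasome subunits, which replace the constitutive catalytic subunits, all 3 were lower in at least 1 treatment at 8 h. The share of all tested genes lower in at least 1 was not computed. Psmb9 had 4.30, 3.25 and 3.09 CPM with both agents and 3.69, 3.32 and 3.29 CPM in libraries labelled 1,25D, against 5.68, 7.17 and 5.98 CPM with vehicle. The groups did not overlap, and its log2 changes were -0.82 ± 0.15 and -0.87 ± 0.15 (adjusted p = 0.0005 and 0.00048). Psmb10 had 45.1, 42.8 and 41.7 CPM in libraries labelled LPA, against 57.1, 62.2 and 60.2 CPM with vehicle, a fall of 27.8% (log2 change -0.47 ± 0.08, adjusted p = 0.00044). Psmb8 changed by the same amount there, -0.47 ± 0.12, with an adjusted p of 0.016, and was lost without replicate 2 or 3 labelled LPA (adjusted p = 0.053 and 0.085) and with the compared groups fitted alone (adjusted p = 0.054). The constitutive counterparts Psmb5, Psmb6 and Psmb7 gave no call in any of the 6 comparisons with vehicle. Psmb9 and Tap1 share 212 bases of exon on opposite strands, and no source used here states whether strand was counted.

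The transporter subunit Tap2, which carries peptides into the endoplasmic reticulum, had 19.9, 22.4 and 18.6 CPM with both agents, against 30.4, 23.8 and 33.9 CPM with vehicle. The groups did not overlap, and the log2 change was -0.53 ± 0.10 (adjusted p = 0.00077), which did not pass with the compared groups fitted alone (adjusted p = 0.087). In libraries labelled 1,25D, at 24.1, 22.6 and 22.1 CPM, Tap2 also passed (log2 change -0.36 ± 0.10, adjusted p = 0.022), although these libraries overlapped vehicle and the call was lost without vehicle replicate 1 or 3 or replicate 2 or 3 labelled 1,25D (adjusted p = 0.054 to 0.11), with length-scaled TPM (adjusted p = 0.1) and with the compared groups fitted alone (adjusted p = 0.14). The class I heavy chains H2-D1 and H2-K1 were lower in libraries labelled 1,25D by 0.30 ± 0.09 and 0.26 ± 0.09 on the log2 scale (adjusted p = 0.024 and 0.048), but both rested on single libraries. H2-K1 was lost without vehicle replicate 1 or 2 or any replicate labelled 1,25D (adjusted p = 0.068 to 0.32), and H2-D1 without vehicle replicate 1 or replicate 2 or 3 labelled 1,25D (adjusted p = 0.066 to 0.092). H2-K1 was also lost with median-of-ratios scaling, no filter, length-scaled TPM and the compared groups fitted alone (adjusted p = 0.052 to 0.17). B2m gave no call against vehicle in any comparison.

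Sensors and effectors made up most of the other falls. Oasl2, a relative of the oligoadenylate synthetases, had 63.2, 57.9 and 51.6 CPM with both agents and 62.8, 61.8 and 61.9 CPM in libraries labelled 1,25D, against 80.5, 99.5 and 69.8 CPM with vehicle. No treated library reached a vehicle library, at log2 changes of -0.53 ± 0.10 and -0.42 ± 0.10 (adjusted p = 0.0007 and 0.0074). Without vehicle replicate 2 the second did not pass (adjusted p = 0.078). Dhx58, which encodes the RNA sensor LGP2, had 9.43, 6.83 and 6.92 CPM with both agents and 7.66, 6.79 and 8.10 CPM in libraries labelled 1,25D, against 10.9, 11.7 and 10.9 CPM with vehicle. The groups did not overlap (log2 changes -0.53 ± 0.15 and -0.57 ± 0.15, adjusted p = 0.017 and 0.013). The first call was lost without replicate 2 or 3 of both agents (adjusted p = 0.073 and 0.076), and the second without vehicle replicate 2 or replicate 2 labelled 1,25D (adjusted p = 0.05 and 0.067). Gbp3, a guanylate-binding protein, had 14.4, 13.3 and 11.1 CPM with both agents and 13.5, 11.9 and 11.8 CPM in libraries labelled 1,25D, against 15.8, 19.6 and 16.7 CPM with vehicle. These changes, -0.42 ± 0.11 and -0.49 ± 0.11 on the log2 scale (adjusted p = 0.011 and 0.0054), were both lost without vehicle replicate 2 (adjusted p = 0.07 and 0.051), and the first also without replicate 3 of both agents (adjusted p = 0.074). Parp14, an ADP-ribosyltransferase, had 21.3, 21.7 and 21.7 CPM with both agents, against 28.0, 27.9 and 26.1 CPM with vehicle, without overlap (log2 change -0.34 ± 0.08, adjusted p = 0.0059). With the compared groups fitted alone, Oasl2, Dhx58, Gbp3 and Parp14 did not pass with both agents (adjusted p = 0.064 to 0.14), nor Oasl2 labelled 1,25D (adjusted p = 0.086). With length-scaled TPM, Dhx58 with both agents and Gbp3 labelled 1,25D did not pass (adjusted p = 0.14 and 0.2).

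Fewer calls concerned the remaining members at 8 h. Isg15, the ubiquitin-like modifier, changed by -0.49 ± 0.13 (adjusted p = 0.016) in libraries labelled LPA and did not pass without vehicle replicate 2 or replicate 2 or 3 labelled LPA (adjusted p = 0.075 to 0.11). Ifih1, the RNA sensor MDA5, had 17.6, 18.3 and 15.4 CPM in libraries labelled LPA, against 21.6, 21.7 and 21.2 CPM with vehicle, below vehicle in all 3 (log2 change -0.33 ± 0.09, adjusted p = 0.021). It was lost without vehicle replicate 2 or replicate 3 labelled LPA (adjusted p = 0.052 and 0.12). Xaf1 in libraries labelled LPA and Parp9 in libraries labelled 1,25D passed with changes of -0.30 and -0.29, and both calls were lost without vehicle replicate 2 (adjusted p = 0.3 and 0.15). Xaf1 was also lost without replicate 2 or 3 labelled LPA (adjusted p = 0.1 and 0.16), and Parp9 without vehicle replicate 3 or replicate 1 or 2 labelled 1,25D (adjusted p = 0.05 to 0.12). With the compared groups fitted alone, none of these 4 calls passed (adjusted p = 0.069 to 0.22), and with length-scaled TPM or no filter Ifih1, Xaf1 and Parp9 did not pass (adjusted p = 0.062 to 0.24).

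Zbp1, a sensor of Z-form nucleic acids, was the member that rose at 8 h. It had 21.3, 24.01 and 18.6 CPM with both agents, 16.1, 15.3 and 14.8 CPM in libraries labelled 1,25D, and 11.6, 11.9 and 12.9 CPM in libraries labelled LPA, against 9.72, 14 and 9.70 CPM with vehicle. The libraries with both agents stood above all others, and the rise of 91.5% passed (log2 change 0.94 ± 0.16, adjusted p = 0.00021). The change of 0.47 ± 0.16 in libraries labelled 1,25D did not pass (adjusted p = 0.053).

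**Figure D3:**
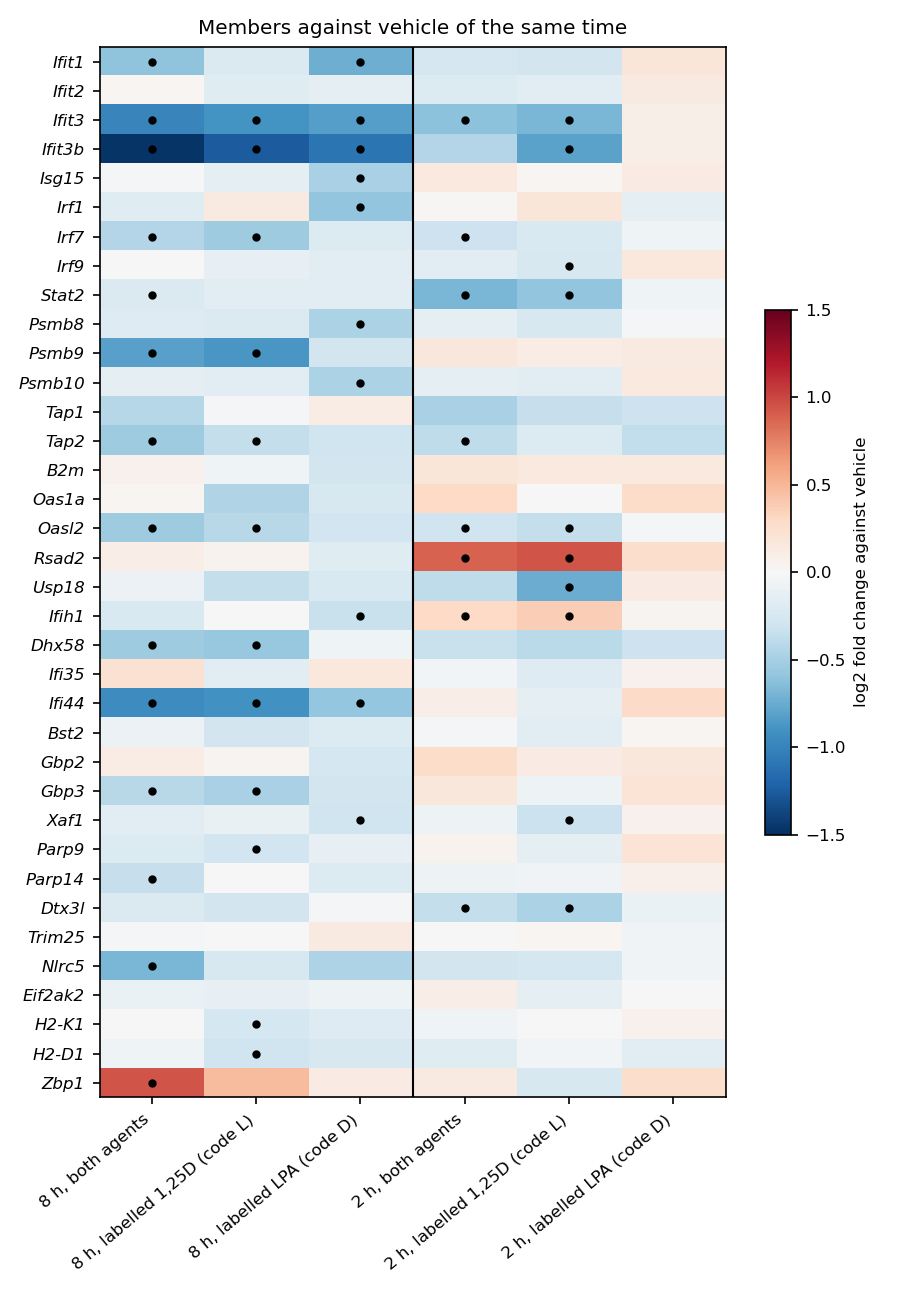
Log2 fold change of each member against vehicle of the same time, 8 h on the left and 2 h on the right, with a black dot where the adjusted p was under 0.05. Dots at 8 h lie on blue (lower) cells except that of Zbp1 with both agents, and at 2 h the red dots are Rsad2 and Ifih1.

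At 2 h the changes were fewer and ran both ways. With both agents, 6 members were lower and 2 higher (19.9% of all tested genes called), and in libraries labelled 1,25D 8 were lower and 2 higher (13.9% called). With both agents the share of members called, 22.2%, lay nearer to that of all genes than at 8 h. In libraries labelled 1,25D the share was 27.8% against 13.9% of all genes, and 33.3% against 16.2% at 8 h. Counting lower calls alone at 2 h, 22.2% of members were lower labelled 1,25D, against 6.85% of all genes. With both agents 16.7% of members were lower, against 1644 of the 16424 tested genes. These shares describe the list and do not test it. The count with both agents fell to 3 without their replicate 2, 5 without their replicate 1, 5 without vehicle replicate 1 and 4 without vehicle replicate 3, and the count labelled 1,25D fell to 5 without their replicate 2. In libraries labelled LPA no member passed in edgeR (0.785% of all tested genes called), 2 had an unadjusted p under 0.05, and DESeq2 called 1.

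Stat2, the subunit of the type I interferon factor, was the member with the smallest p. It had 32.1, 33.97 and 36.4 CPM with both agents, 38.7, 35.3 and 36.3 CPM in libraries labelled 1,25D, and 52.8, 49.2 and 57.3 CPM in libraries labelled LPA, against 59.0, 52.2 and 54.5 CPM with vehicle. Libraries with both agents or labelled 1,25D lay far below vehicle, and those labelled LPA overlapped it. Its log2 changes were -0.69 ± 0.07 with both agents and -0.59 ± 0.07 labelled 1,25D (adjusted p = 5.5e-07 and 8.6e-06). Ifit3 was also lower at 2 h, with 8.13, 7.31 and 8.45 CPM with both agents and 7.41, 7.88 and 7.48 CPM in libraries labelled 1,25D, against 12.4, 11.6 and 12.4 CPM with vehicle. Its groups did not overlap (log2 changes -0.61 ± 0.12 and -0.68 ± 0.12, adjusted p = 0.00092 and 0.00049). Ifit3b followed in libraries labelled 1,25D, with 1.79, 1.64 and 1.47 CPM, against 2.64, 3.24 and 2.68 CPM with vehicle (log2 change -0.80 ± 0.17, adjusted p = 0.0026).

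Dtx3l, a ubiquitin ligase that pairs with PARP9, had 22.7, 23.5 and 25.2 CPM with both agents and 24.9, 22.8 and 18.3 CPM in libraries labelled 1,25D, against 30.4, 28.3 and 33.2 CPM with vehicle. The groups did not overlap (log2 changes -0.36 ± 0.11 and -0.47 ± 0.11, adjusted p = 0.02 and 0.0043). The first was lost without vehicle replicate 3 or replicate 1 or 2 of both agents (adjusted p = 0.065 to 0.098) and with length-scaled TPM (adjusted p = 0.058). Dtx3l and Parp9 share 458 exon bases on opposite strands. Usp18, the protease that removes ISG15 and restrains interferon signalling, had 6.38, 3.54 and 4.26 CPM in libraries labelled 1,25D, against 8.18, 6.17 and 9.498 CPM with vehicle. The groups overlapped, and the log2 change of -0.75 ± 0.18 passed (adjusted p = 0.0059) but not without replicate 2 labelled 1,25D (adjusted p = 0.053) or with the compared groups fitted alone (adjusted p = 0.057). Tap2, at 26.3, 23.7 and 25.7 CPM with both agents against 32.9, 32.8 and 32.8 CPM with vehicle, was lower without overlap (log2 change -0.38 ± 0.10, adjusted p = 0.011), but not without replicate 2 of both agents (adjusted p = 0.062). Irf7 with both agents (-0.31 ± 0.10), Oasl2 with both agents and labelled 1,25D (-0.30 and -0.36), and Irf9 and Xaf1 labelled 1,25D (-0.24 and -0.32) also passed, and each of these calls was lost when vehicle replicate 1 was left out (adjusted p = 0.12 to 0.21) or vehicle replicate 3 (adjusted p = 0.053 to 0.13). Irf7 was also lost without any replicate of both agents (adjusted p = 0.07 to 0.097), and Irf9 without any replicate labelled 1,25D (adjusted p = 0.078 to 0.15). Oasl2 was lost without replicate 1 or 2 of both agents (adjusted p = 0.11 and 0.17) and replicate 2 or 3 labelled 1,25D (adjusted p = 0.11 and 0.076), and Xaf1 without replicate 1 or 2 labelled 1,25D (adjusted p = 0.06 and 0.16). With length-scaled TPM both Oasl2 calls, Irf9 and Xaf1 did not pass (adjusted p = 0.057 to 0.23). With no filter Irf7, Irf9 and Xaf1 did not pass (adjusted p = 0.054 to 0.21), and with the compared groups fitted alone Irf9 and Xaf1 did not (adjusted p = 0.073 each).

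Rsad2 and Ifih1 were the members that rose at 2 h. Rsad2, which encodes the antiviral enzyme viperin, had 10.4, 10.01 and 11.8 CPM with both agents, 11.5, 10.8 and 11.2 CPM in libraries labelled 1,25D, and 6.53, 7.94 and 6.44 CPM in libraries labelled LPA, against 5.29, 5.73 and 6.47 CPM with vehicle. The first 2 groups lay above every other library at 2 h. Rsad2 rose by 84.3% with both agents and 91.8% labelled 1,25D (log2 changes 0.88 ± 0.14 and 0.94 ± 0.14, adjusted p = 9.8e-05 and 7.4e-05). Ifih1 had 28.3, 30.2 and 32.4 CPM with both agents and 33.5, 34.3 and 27.8 CPM in libraries labelled 1,25D, against 23.6, 25.5 and 24.7 CPM with vehicle. Its groups did not overlap (log2 changes 0.30 ± 0.09 and 0.37 ± 0.09, adjusted p = 0.023 and 0.0073), but neither change passed when counts were rebuilt from length-scaled TPM (adjusted p = 0.65 and 0.76). With both agents it was also lost with no filter (adjusted p = 0.13) and without vehicle replicate 1 or 3 or replicate 2 or 3 of both agents (adjusted p = 0.059 to 0.098), and labelled 1,25D without replicate 2 (adjusted p = 0.056).

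**Figure D4:**
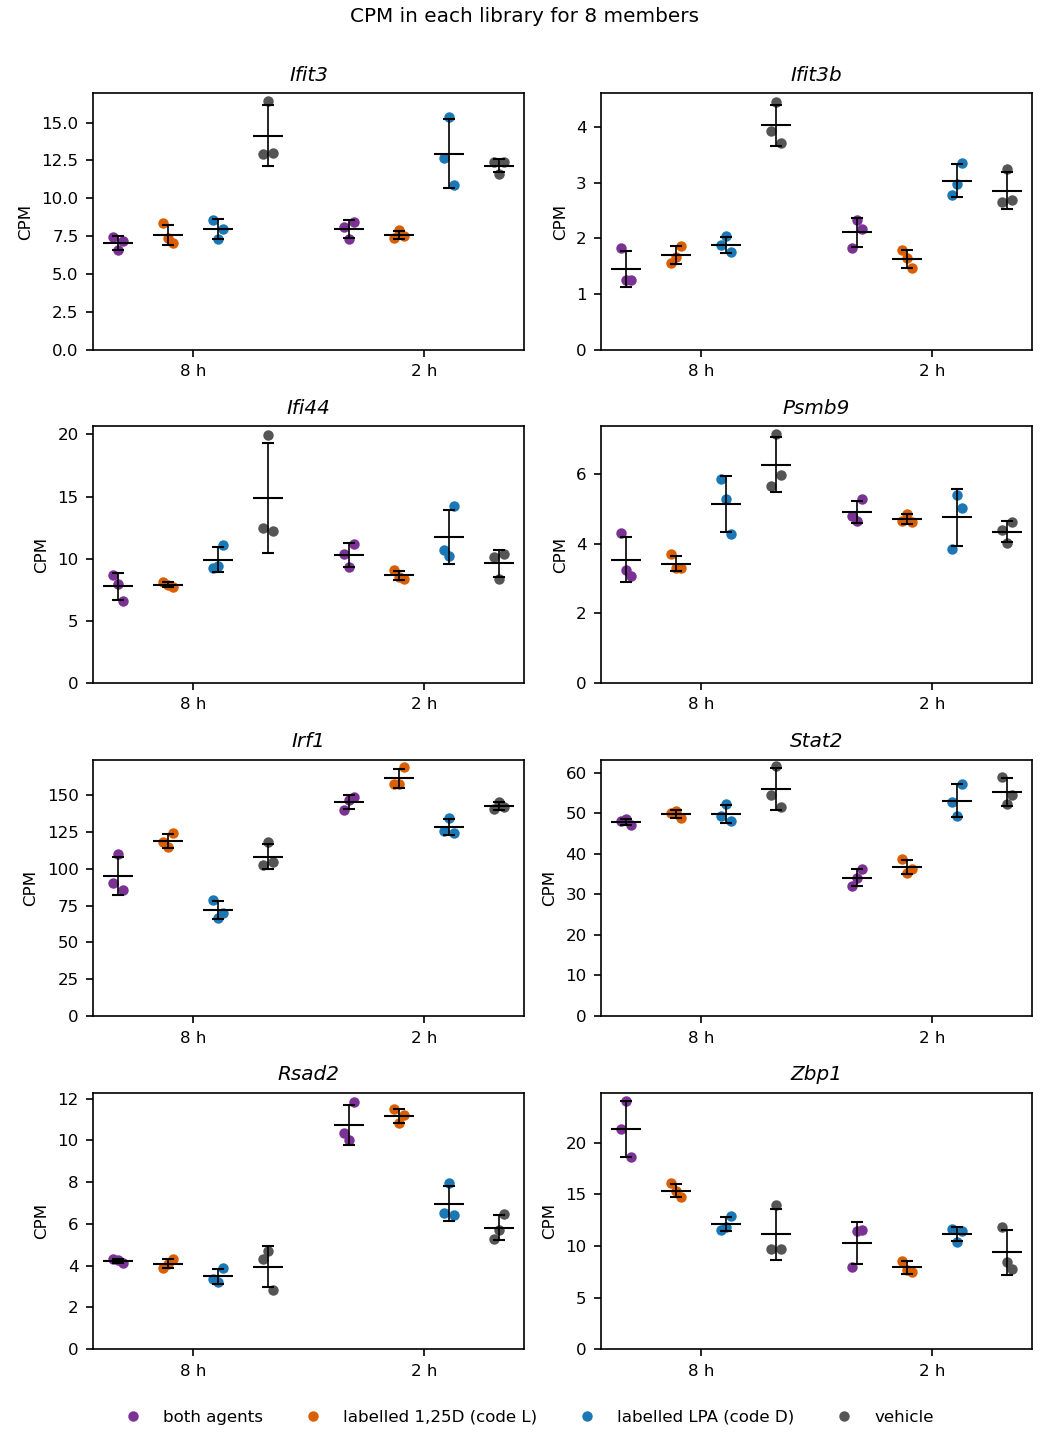
CPM of 8 members in each library (points), with the mean and SD of 3 libraries (bars), 8 h on the left of each panel and 2 h on the right. Ifit3 lies near 7 to 8 CPM in all treated groups at 8 h, against 12.9 to 16.4 CPM with vehicle, and Rsad2 stands out at 2 h with both agents and in libraries labelled 1,25D.

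The single treatments differed from each other directly. At 8 h, libraries labelled 1,25D had 5 members higher and 4 lower than libraries labelled LPA (17.6% of all tested genes called), and the count fell to 4 without replicate 2 labelled 1,25D. Irf1 averaged 119 ± 4.79 CPM labelled 1,25D and 71.9 ± 5.97 CPM labelled LPA (SD), a log2 difference of 0.73 ± 0.08 (SE; adjusted p = 7.0e-07). Psmb9 went the other way, with 3.44 ± 0.226 CPM labelled 1,25D and 5.15 ± 0.797 CPM labelled LPA (adjusted p = 0.0098). At 2 h, 3 members were higher and 13 lower in libraries labelled 1,25D than in those labelled LPA (18.1% called), with 9 left without replicate 2 labelled 1,25D. Usp18 showed a log2 difference of -0.87 ± 0.18, Ifit3b of -0.89 ± 0.17 and Stat2 of -0.53 ± 0.07.

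Both agents were also set against each single treatment. Relative to libraries labelled 1,25D at 8 h, 1 of 36 members was higher and 2 lower with both agents, a share near the 9.17% of all tested genes called. These were Ifi35, an interferon-induced protein (log2 difference 0.39 ± 0.09), and Irf1 and Parp14 (-0.32 ± 0.08 and -0.34 ± 0.08). The count was 1 without replicate 3 labelled 1,25D and 5 without replicate 3 of both agents, 6 by DESeq2 or with no filter, and 12 with a covariate for variation within groups. At 2 h no member passed in edgeR (0.767% called), 5 had an unadjusted p under 0.05, and DESeq2 called 0. Relative to libraries labelled LPA, 22.2% of members were called with both agents at 8 h, a share near the 22.9% of all tested genes. Of these members, 6 were higher and 2 lower, among them Zbp1 (0.82 ± 0.16), Irf1 (0.41 ± 0.08) and B2m (0.34 ± 0.12). That count fell to 2 without replicate 2 of both agents, 3 without replicate 2 labelled LPA and 5 without replicate 3 labelled LPA, and was 1 with the compared groups fitted alone and 16 with the covariate. At 2 h, 2 were higher and 7 lower (18.7% called), with Stat2 at -0.64 ± 0.07 and Ifit3 at -0.70 ± 0.12, and 5 were left without replicate 3 labelled LPA or replicate 1 of both agents.

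The interaction measures how far both agents depart from the sum of the single effects on the log2 scale. At 8 h, 7 members had a positive interaction and none a negative one (7.68% of all tested genes called). They were Ifit3 (0.73 ± 0.17), Ifit3b (0.86 ± 0.25), Isg15 (0.61 ± 0.18), Psmb10 (0.50 ± 0.12), Oas1a (0.72 ± 0.22), H2-K1 (0.44 ± 0.13) and H2-D1 (0.48 ± 0.13), with adjusted p from 0.033 to 0.049. For Ifit3 this means that the change with both agents, -0.99, was smaller in size than the sum of -0.90 and -0.83. These calls rested on single libraries: none was left without vehicle replicate 2, any replicate labelled 1,25D, replicate 2 or 3 labelled LPA, or replicate 2 of both agents, 1 without replicate 1 of both agents, 11 without replicate 1 labelled LPA and 16 without replicate 3 of both agents. None was left with the compared groups fitted alone, 3 with length-scaled TPM, and 18 were called with the covariate. Oas1a shares 68.8% of its 31-base words with other genes, mostly Oas1g. At 2 h no member passed in edgeR (0.0365% called), 1 had an unadjusted p under 0.05, and DESeq2 called 0.

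Vehicle cultures themselves differed between times. At 8 h, 7 members were higher and 2 lower than at 2 h (14.6% of all tested genes called). Ifit3b averaged 4.03 ± 0.370 CPM at 8 h and 2.86 ± 0.337 CPM at 2 h, Psmb9 6.28 ± 0.789 and 4.35 ± 0.307 CPM, and Ifi44 14.9 ± 4.41 and 9.63 ± 1.07 CPM (SD). Irf1 and Rsad2 were lower at 8 h, by 0.40 ± 0.08 and 0.56 ± 0.15 on the log2 scale. The count was 0 with the compared groups fitted alone and 15 with the covariate for variation within groups. It was 5 without vehicle replicate 2 at 8 h, or without vehicle replicate 2 or 3 at 2 h.

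Treatment effects also differed between the times by a test of the difference itself. With both agents, 2 members were higher and 6 lower at 8 h relative to 2 h (9.68% of all tested genes called), in libraries labelled 1,25D 1 was higher and 2 lower (4.17% called), and in libraries labelled LPA none was higher and 7 were lower (6.76% called). With both agents, the log2 difference of Psmb9 from vehicle was -0.82 at 8 h and 0.17 at 2 h, and that of Rsad2 was 0.10 at 8 h and 0.88 at 2 h. With the compared groups fitted alone, 2, 1 and 4 members were called in these 3 tests.

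Genes around the members gave a partial view of the pathway. Interferon genes themselves were at or near 0: Ifnb1 had 4 counts and Ifnl3 2 counts over all 24 libraries, and Ifna1, Ifna2, Ifna4, Ifng and Ifnl2 had none, which allows up to 3 counts each. Receptor genes Ifnar1, Ifnar2, Ifngr1, Ifngr2 and Il10rb were expressed. The receptor gene Ifnlr1 was not, with a median of 0.094 TPM and 0.27 TPM in its highest library. At 8 h, Ifnar2 was higher with both agents (0.47 ± 0.06) and labelled LPA (0.37 ± 0.06), and Ifngr1 and Ifngr2 were lower labelled LPA (-0.41 ± 0.08 each). Il10rb was also called lower at 8 h, labelled 1,25D and labelled LPA. Socs1 and Socs3, inhibitors of JAK signalling, were higher at 2 h, Socs3 by 2.21 ± 0.23 with both agents and 2.33 ± 0.24 labelled 1,25D, and Socs1 by 1.18 ± 0.24 and 1.49 ± 0.24.

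Of 42 further interferon-stimulated genes tested, 4 were higher and 13 lower with both agents at 8 h, 2 and 10 labelled 1,25D, and 2 and 10 labelled LPA, with medians of -0.24, -0.17 and -0.27. Of all tested genes, 16.8%, 16.2% and 12.0% were called in these comparisons, and 7.25%, 8.32% and 5.38% were lower. The pathway lists, like the members, were chosen with earlier results of these data known. At 2 h, 3 of the 42 were higher and 5 lower with both agents and labelled 1,25D, where 19.9% and 13.9% of all tested genes were called, so nothing particular to the list is read from these counts. None passed labelled LPA. Cxcl10, a chemokine that attracts T cells, rose at 2 h by 0.76 ± 0.09 with both agents and 0.94 ± 0.09 labelled 1,25D. Samhd1, a nucleotide hydrolase, was higher at 8 h with both agents (0.74 ± 0.05) and labelled LPA (1.15 ± 0.05) and lower labelled 1,25D (-0.25 ± 0.05). Of 15 further antigen-presentation genes tested at 8 h, 6 were lower labelled LPA, where 5.38% of all tested genes were, among them Tapbpl (-0.52 ± 0.10) and H2-T22 (-0.34 ± 0.09), and 1 each was lower with both agents and labelled 1,25D. Of 8 nucleic-acid sensing genes, 4 were lower at 2 h with both agents and labelled 1,25D, including Adar (-0.45 ± 0.07 and -0.37 ± 0.07), an RNA editor. Of all tested genes, 19.9% and 13.9% were called there in either direction.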

How the data were processed

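RNA from Ocy454 cells was sequenced in 24 libraries of 8 groups, with groups taken from the sample titles. Per the file headers, each deposited table gives an estimated count for every transcript, fractional and unscaled. Per the file headers, it also gives TPM, in which the authors adjusted for transcript length and depth. The submitters' processing notes name mm39 as the build, and no source used here names the quantifier.

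Transcripts were joined to genes with GENCODE M21, which matched 135078 of 139145 and held at least 99.45% of counts. Estimated counts were summed per gene and rounded, and TPM were summed. The test was edgeR 4.0.16 in R 4.3.3 (robust quasi-likelihood F test, TMM, filterByExpr minimum count 10) over 16424 genes in 1 fit of 8 groups, with Benjamini-Hochberg adjustment over all tested genes and a threshold of 0.05. The residual degrees of freedom were 16 and the common biological coefficient of variation 0.131. CPM use TMM-scaled library sizes. The script was tested on simulated data. The 18 comparisons share control libraries. Alternatives were median-of-ratios scaling, no filter, DESeq2 1.42.0, the compared groups alone, a replicate block, length-scaled TPM, a covariate for variation within groups, leaving out each library and TPM limits of 0.5 and 2.

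Per-library values are given for up to 20 members, by smallest adjusted p among the 6 comparisons with vehicle, and other members by range. Non-members come from pathway lists. The members and lists were chosen with earlier results of these data known. Replicate numbers were not taken to pair the libraries.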

Additional observations from a re-analysis of the deposited data

Results flagged for a closer look

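Treatment effects of some members differed between 8 h and 2 h by a test of the difference itself (the change against vehicle at 8 h minus that at 2 h, log2 scale, edgeR's quasi-likelihood test with Benjamini-Hochberg adjustment). With both agents, 8 members differed (9.68% of all tested genes called): Ifit3b by -1.03, Ifi44 by -1.04, Psmb9 by -0.99, Rsad2 by -0.78, Gbp3 by -0.59 and Ifih1 by -0.53 toward lower, and Zbp1 by 0.80 and Stat2 by 0.47 toward higher. The count was 5 without vehicle replicate 1 at 2 h. In libraries labelled 1,25D, 3 members differed (4.17% called): Psmb9 by -0.98, Rsad2 by -0.89 and Stat2 by 0.42, and 1 was left without vehicle replicate 1 at 2 h or at 8 h. In libraries labelled LPA, 7 differed (6.76% called), all toward lower at 8 h: Ifit3b by -1.18, Ifit1 by -0.92, Ifit3 by -0.92, Ifi44 by -0.87, Psmb10 by -0.62, Isg15 by -0.61 and Irf1 by -0.44. That count was 4 without vehicle replicate 2 or replicate 2 labelled LPA at 8 h, 11 without replicate 1 labelled LPA and 13 without vehicle replicate 3 at 8 h.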

How the results depend on the processing

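None of the 54 member calls against vehicle reversed in direction under any alternative run, and the other comparisons were followed by their counts alone. The numbers of members called were within 1.5 times the main value under median-of-ratios scaling in all 18 comparisons, and the limits of 0.5 and 2 TPM left all 36 members expressed. Of the 54 calls, DESeq2 and the covariate kept 54, median-of-ratios scaling 53, no filter 45, length-scaled TPM 39 and the compared groups alone 32. The cause of the moves below was not tested, except that the compared groups alone use fewer libraries for the spread.

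With a covariate for variation within groups, counts were 13, 16 and 4 at 2 h for both agents, labelled 1,25D and labelled LPA against vehicle, 20 for labelled LPA against vehicle at 8 h, 1 and 14 for both agents against labelled 1,25D and labelled LPA at 2 h, 12 and 16 for the same at 8 h, 18 for the 8 h interaction, 15 for vehicle between times, and 8 and 20 for the time differences labelled 1,25D and labelled LPA. With length-scaled TPM they were 5 and 6 for both agents and labelled 1,25D against vehicle at 2 h, 5 for labelled 1,25D against labelled LPA at 8 h, 3 for the 8 h interaction, and 4 and 1 for the time differences with both agents and labelled 1,25D. With the compared groups alone they were 5 and 4 for both agents and labelled LPA against vehicle at 8 h, 1 for both agents against labelled LPA at 8 h, 0 for the 8 h interaction, 0 for vehicle between times, and 2, 1 and 4 for the time differences with both agents, labelled 1,25D and labelled LPA. DESeq2 gave 1 for labelled LPA against vehicle at 2 h, 6 for both agents against labelled 1,25D at 8 h and 11 for the time difference labelled LPA, and no filter gave 6 for both agents against labelled 1,25D at 8 h.

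Leaving out each library in turn gave 11 to 14, 7 to 12 and 6 to 13 members for both agents, labelled 1,25D and labelled LPA against vehicle at 8 h, and 3 to 9, 5 to 10 and 0 to 0 at 2 h. Both agents gave 1 to 5 against labelled 1,25D and 2 to 10 against labelled LPA at 8 h, and 0 to 0 and 5 to 7 at 2 h. Labelled 1,25D against labelled LPA gave 4 to 7 at 8 h and 9 to 13 at 2 h. The interaction gave 0 to 16 at 8 h and 0 to 0 at 2 h, vehicle between times 5 to 8, and the time differences 5 to 8, 1 to 3 and 4 to 13.

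The replicate number as a block gave 13, 11 and 9 members at 8 h and 7, 9 and 0 at 2 h against vehicle, and 5 for the 8 h interaction. Of the 54 calls, 5 did not pass with the block. Same-numbered libraries correlated between -0.25 and 0.36 over 36 pairs, 2 of them over 0.1, so the numbers were not taken to pair them. Those 2 were replicates 2 and 3 of vehicle and both agents at 8 h (0.36 and 0.25). A pairing within that comparison therefore stays possible.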
